A study of Mus musculus with 2 samples.

Results

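The proteasome is the large protease that degrades ubiquitin-tagged proteins and supplies most peptides for MHC class I molecules. Its transcripts were examined in activated mouse macrophages with and without an intact gene for SIRPα, the inhibitory myeloid receptor for CD47. The genes were chosen by symbol, as every row of both deposited tables that starts with Psma, Psmb, Psmc, Psmd, Psme, Psmf or Psmg followed by a digit. This took 49 of 16263 genes. Of these, 47 reached 1 FPKM (fragments per kilobase and per unit of mapped fragments, a level per transcript length) in at least 1 library. Genes of the whole table that pass this filter, 10092 in all, are called kept genes below.

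The study has 2 libraries, and each is the only one of its group. One came from wild-type (WT) mice and one from mice labelled SIRPalpha-/- (SIRPα-KO), both of the strain C57BL/6 per the labels. In both groups marrow cells were cultured for 5 days in M-CSF-conditioned medium, M-CSF being the growth factor of the macrophage lineage. All cells were then given IFNγ (20 ng/ml) and LPS (100 ng/ml) for 6 h, together with mCD47.ex, a reagent that the labels do not define. All values are therefore from activated cells. Cells of 5 mice were mixed per genotype before RNA extraction, so the spread between mice is unknown, no test between the genotypes was possible, and every difference below describes these libraries. The sources used here do not state the age or sex of the mice or the design of the targeted allele. Sirpa itself was at 154 (WT) and 71.5 FPKM (SIRPα-KO), so its transcript remained in the library labelled as the knockout, and SIRPα-KO below means the library with that label.

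Each proteasome holds a barrel-shaped 20S core of α and β rings and can carry a 19S cap, which recognizes and unfolds ubiquitinated proteins. Of the β subunits, Psmb5, Psmb6 and Psmb7 carry the active sites in most cells. IFNγ induces their replacements Psmb8, Psmb9 and Psmb10, which form the immunoproteasome, and the cap subunits Psme1 and Psme2 (PA28α and PA28β), which open the core. These 5 inducible genes are called immunosubunits here.

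The sequences just upstream of the start sites are shown first for 4 catalytic genes, the immunosubunits Psmb8 and Psmb9 with their counterparts Psmb5 and Psmb6, because promoter elements are how interferon and proteasome stress are known to reach such genes. They come from RefSeq (GRCm38.p6), whose promoter table held 41 of the 49 genes and lacks Psmb7. They run 5′ to 3′ on the strand of each gene, up to the last base before its start. Capitals mark matches, on either strand, to any of the 4 letter patterns that were searched. These were GAAA-any 2 bases-GAAA for the interferon-stimulated response element, TTCNNNGAA for the interferon-gamma-activated site (GAS), GGG-any 3 bases-TTCC for NF-κB, and TGACNNNGC for the antioxidant-type element of the NRF factors. For Psmb9 only the 225 bases between its start and that of Tap1, the peptide transporter gene on the opposite strand, are shown.
Psmb8 (chr17:34197945-34198194, + strand): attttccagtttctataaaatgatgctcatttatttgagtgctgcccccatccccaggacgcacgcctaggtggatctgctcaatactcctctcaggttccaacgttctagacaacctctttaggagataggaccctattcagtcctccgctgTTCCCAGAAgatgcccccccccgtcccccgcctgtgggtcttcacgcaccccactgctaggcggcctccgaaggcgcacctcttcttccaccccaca
Psmb9 (chr17:34187331-34187555, - strand): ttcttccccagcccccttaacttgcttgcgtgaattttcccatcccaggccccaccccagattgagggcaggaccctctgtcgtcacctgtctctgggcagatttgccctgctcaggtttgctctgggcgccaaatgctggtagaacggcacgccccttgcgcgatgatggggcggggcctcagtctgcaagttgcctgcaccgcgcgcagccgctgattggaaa
Psmb5 (chr14:54617996-54618245, - strand): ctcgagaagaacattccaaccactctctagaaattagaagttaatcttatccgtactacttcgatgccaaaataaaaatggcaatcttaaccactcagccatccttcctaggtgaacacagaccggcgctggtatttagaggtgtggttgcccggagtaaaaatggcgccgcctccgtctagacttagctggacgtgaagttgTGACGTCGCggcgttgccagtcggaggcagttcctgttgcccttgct
Psmb6 (chr11:70525107-70525356, + strand): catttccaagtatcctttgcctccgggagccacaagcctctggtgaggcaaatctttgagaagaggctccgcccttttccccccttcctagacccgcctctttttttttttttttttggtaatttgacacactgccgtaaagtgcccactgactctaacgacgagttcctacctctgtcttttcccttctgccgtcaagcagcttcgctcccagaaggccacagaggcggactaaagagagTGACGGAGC

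In these windows Psmb8 held 1 GAS pattern, which starts 97 bases before the gene's start, and Psmb5 and Psmb6 held 1 antioxidant-type pattern each. The printed Psmb9 stretch held none of the 4, and neither did the windows of Psmb10, Psme1 and Psme2, which are not printed. In the 250 bases before the start, the GAS pattern was found at 7.02% of 32851 promoters and at 2 of the 41 proteasome genes in the table, Psmb8 and Psmg1. The antioxidant-type pattern was found at 10.2% of promoters and at 5 of these genes, which besides Psmb5 and Psmb6 were Psmc6, Psmd9 and Psmd12. The interferon-stimulated response element pattern was found at 2.98% of promoters and at 3 of these genes, Psmb3, Psmd4 and Psmd9, and the NF-κB pattern at 4.65% and at 3, Psmd2, Psmd12 and Psme4. A match is a run of letters and not a measured site, and a window without one says nothing about the factor. By the same table Psme1 and Psme2 start 12.6 kb apart on chromosome 14, and Psmb8 and Psmb9 start 10.9 kb apart on chromosome 17.

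Immunosubunit transcripts were abundant in both libraries. Psme2 was at 542 (WT) and 626 FPKM (SIRPα-KO) and had the highest level of the 49 genes in each. Psme1, which assembles with Psme2 into the same ring, was at 398 (WT) and 416 FPKM (SIRPα-KO). Psmb8, the chymotrypsin-like immunosubunit, followed with 262 (WT) and 245 FPKM (SIRPα-KO). Psmb9, the immunosubunit that takes the place of the caspase-like Psmb6, was at 158 (WT) and 176 FPKM (SIRPα-KO). Psmb10, the trypsin-like immunosubunit, was at 116 (WT) and 110 FPKM (SIRPα-KO). In both libraries the levels of these 5 genes had the same order. Together they made up 42.3% of the summed FPKM of all 49 genes in WT and 43.1% in SIRPα-KO.

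The constitutive catalytic subunits were lower than their inducible counterparts in both libraries. Psmb6, the caspase-like subunit, was at 129 (WT) and 123 FPKM (SIRPα-KO). Psmb7, the trypsin-like subunit, was at 85.6 (WT) and 80.3 FPKM (SIRPα-KO). Psmb5, the chymotrypsin-like subunit, was at 37.9 (WT) and 40.0 FPKM (SIRPα-KO), the lowest of the 6 catalytic genes in each library. The plot of all levels by subcomplex shows most genes at nearly the same height in both libraries. Psmg2 (1.19 in WT and 2.85 FPKM in SIRPα-KO), Psmb11 (1.96 and 3.12 FPKM) and Psmd7 (43.2 and 62.7 FPKM) lay further apart.

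**Figure D1:**
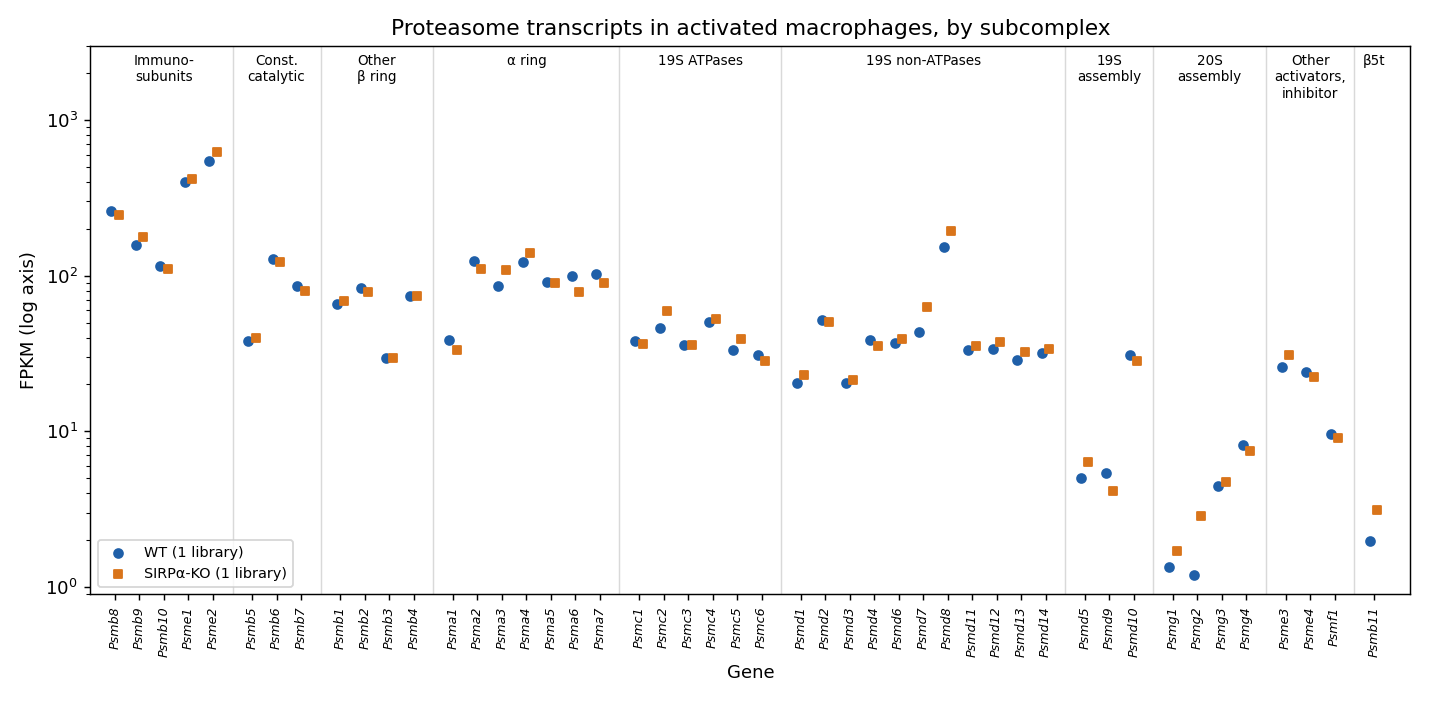
Level of each of the 47 kept proteasome genes in the WT library (circles) and the SIRPα-KO library (squares), in FPKM on a log axis, grouped by subcomplex; each point is 1 library made from the mixed cells of 5 mice. Psme2 (542 and 626 FPKM), Psme1 (398 and 416) and Psmb8 (262 and 245) are the highest in both libraries, and 6 of the 7 assembly chaperones lie under 10 FPKM.

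The first comparison asked whether the balance of immunoproteasome and constitutive proteasome transcripts differs between the libraries. FPKM is per length, so levels of different genes can be compared within a library, and a share does not depend on the scaling between libraries. Psmb8, Psmb9 and Psmb10 summed to 535 (WT) and 532 FPKM (SIRPα-KO). Psmb5, Psmb6 and Psmb7 summed to 252 (WT) and 244 FPKM (SIRPα-KO). The immunosubunits thus made up 68.0% (WT) and 68.6% (SIRPα-KO) of the catalytic FPKM.

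The ratio of the immunosubunit to its counterpart was much higher at the chymotrypsin-like site than at the other sites in both libraries. This gap rests in part on the low level of Psmb5, which is uncertain because of shared sequence, as given below. Psmb8 was 6.91 times Psmb5 in WT and 6.13 times in SIRPα-KO, 87.4% and 86.0% of the pair. Psmb9 was 1.23 times Psmb6 in WT and 1.43 times in SIRPα-KO, 55.1% and 58.8% of the pair. Psmb10 was 1.35 times Psmb7 in WT and 1.38 times in SIRPα-KO, 57.4% and 57.9% of the pair. The ratio within the pair of Psmb9 and Psmb6 differed by 0.22 on the log2 scale, SIRPα-KO minus WT, with a 95% interval of 0.08 to 0.37. For Psmb8 and Psmb5 the difference was -0.17 (-0.39 to 0.04) and for Psmb10 and Psmb7 it was 0.03 (-0.13 to 0.18). These intervals, like all others below, rest on read numbers estimated from FPKM and cover counting error only, since reads without molecular identifiers are not independent molecules and mice were not sampled separately.

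**Figure D2:**
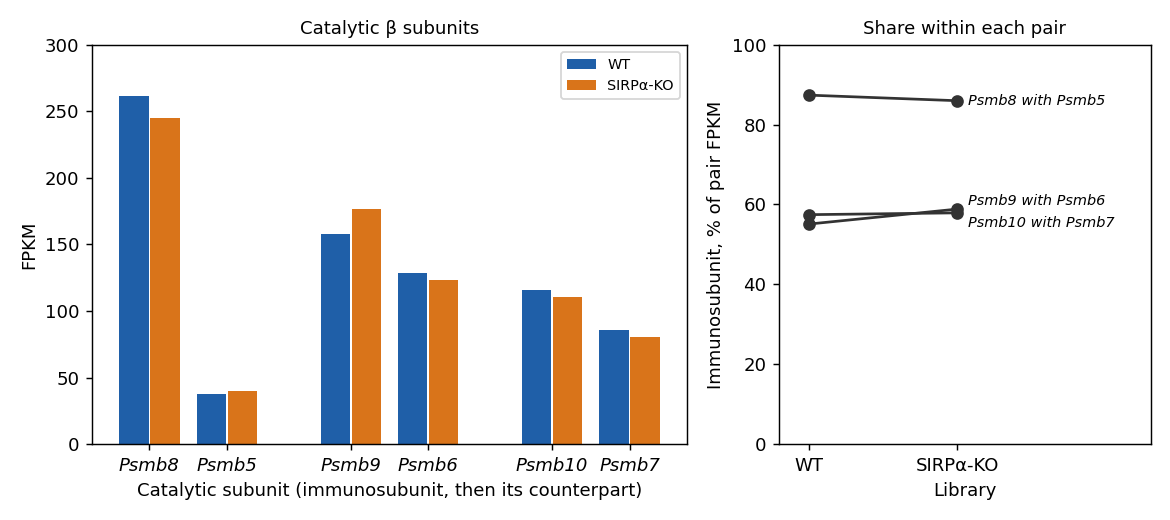
Left, level in FPKM of the 3 catalytic immunosubunits beside their constitutive counterparts, 1 bar per library (WT blue, SIRPα-KO orange, no error bars because each group is 1 library). Right, the immunosubunit as a percentage of its pair's FPKM in each library, which is 87.4% and 86.0% for Psmb8 and between 55.1% and 58.8% for Psmb9 and Psmb10.

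Several of these transcripts overlap a neighbour or share sequence with a copy. The use of strand in the counting is not given in the sources used here, so reads of a gene and of an overlapping gene on the other strand cannot be told apart. In GENCODE release M21, 34.9% of the exon bases of Psmb7 overlap Nek6 on the other strand, a kinase gene at 40.6 (WT) and 8.77 FPKM (SIRPα-KO). Of the exon bases of Psmb9 15.7% overlap Tap1, at 289 (WT) and 305 FPKM (SIRPα-KO). For these overlaps the exons of all GENCODE transcripts of a gene were pooled. By the RefSeq starts given earlier, 225 bases lie between Psmb9 and Tap1, so this overlap depends on the transcripts used. Psmb8 overlaps Gm20496 on the other strand over 11.4% of its exon bases, and Psmb5 overlaps Mir686 on its own strand over 12.1%, and neither partner has a row in the tables. Of the 50-base words of the Psmb5 transcript 57.1% also occur in another annotated gene, for the most part the pseudogene Gm3375, and 55.6% of those of Psme2 do, for the most part in Psme2b. Neither Gm3375 nor Psme2b has a row in the tables, so the levels of Psmb5 and Psme2 are uncertain. Words were read in the direction of each transcript only. In that direction no word of Psmb7, Psmb8, Psmb9 or Psmb10 occurred in another annotated gene, and 2.67% of those of Psmb6 did. Sequence shared with a gene on the other strand, as in the overlaps above, was not counted in this search. The part of these overlaps in the values was not tested.

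The second comparison asked how each proteasome transcript differs between the genotypes. Differences are given as the log2 ratio of FPKM + 1, SIRPα-KO to WT, and a gene is called when these values differ at least 2-fold. Of the 47 kept proteasome genes 0 were called higher and 0 lower. Over all 10092 kept genes 3.43% were called higher and 4.31% lower. The median log2 ratio of the 47 genes was 0.06, and that of all kept genes was 0.06. With either of the other scalings between the libraries, median-of-ratios and trimmed-mean, the median of the 47 genes was just below 0, at -0.0107 and -0.0075. That of all kept genes was then -0.0015 and 0.0013. In the main setting 27 of the 47 genes had a ratio above 0 and 20 below, and of all kept genes 5662 and 4421. The ratios of the proteasome genes ran from -0.34 to 0.81, with a median size without sign of 0.11, against 0.28 for all kept genes. Across the 47 genes the log2 levels in the libraries had a Pearson correlation of 0.992, against 0.953 across all kept genes. Genes of a library share its depth and are not replicates, so both are descriptions.

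A smaller limit of 1.25-fold, added after the values were seen, set 6 proteasome genes as higher and 1 as lower, which is 12.8% and 2.13% of 47. Of all kept genes 25.1% were higher and 19.3% lower by this limit. The higher genes were Psma3, Psmb11, Psmc2, Psmd7, Psmd8 and Psmg2, and the lower one was Psma6. With either of the other scalings the counts were 3 and 2, and with a pseudocount of 0.1 they were 8 and 2. The shares of all kept genes at this limit are for the main setting only, so these counts have no share beside them. Of all kept genes 10.9% were higher and 10.2% lower by at least 1.5-fold, and of the proteasome genes 1 (Psmg2) and 0. Because most proteasome genes are abundant, the comparison was repeated among the 3026 genes at 20 FPKM or more in 1 library. Of the 39 proteasome genes among them 34 (87.2%) lay within 1.25-fold, while 45.3% of the 3026 genes differed by 1.25-fold or more and 9.78% by 2-fold or more in either direction. The histogram of ratios shows the proteasome genes near 0, inside the spread of all genes.

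**Figure D3:**
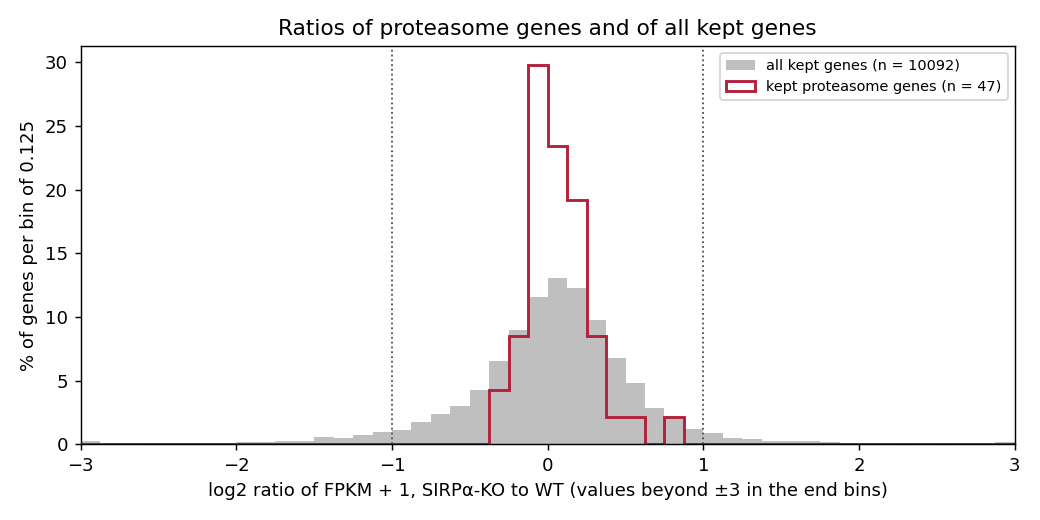
Percentage of genes per bin of the log2 ratio of FPKM + 1, SIRPα-KO to WT, for all 10092 kept genes (grey) and the 47 kept proteasome genes (red outline), with dotted lines at the 2-fold limit and values beyond the axis in the end bins. The proteasome genes lie between -0.34 and 0.81, and none passes a dotted line.

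Among the immunosubunits the fold of SIRPα-KO to WT was 1.15 for Psme2, with a counting interval of 1.11 to 1.20. It was 1.12 for Psmb9 (1.06 to 1.18) and 1.04 for Psme1 (1.003 to 1.09). It was 0.935 for Psmb8 (0.898 to 0.975) and 0.955 for Psmb10 (0.891 to 1.02). The log2 ratio of Psme1 was 0.06, but -0.01 with either of the other scalings. The constitutive Psmb5, Psmb6 and Psmb7 had folds of 1.06, 0.958 and 0.937, and each of their intervals included 1. The median log2 ratio was 0.06 for the 5 immunosubunits and -0.06 for the 3 constitutive genes, a difference of 0.12. With the other scalings the immunosubunit median was -0.01 and the constitutive one -0.13, again a difference of 0.12. With the 3 catalytic immunosubunits alone the difference was -0.0043, so that it came from including Psme1 and Psme2.

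Counting intervals were narrow for the abundant genes. They lay above 1 for 16 proteasome genes and below 1 for 7, and 24 included 1. Over the kept genes whose length was known 33.3% lay above 1 and 23.3% below. An interval that leaves out 1 compares the reads of these 2 libraries, not the genotypes.

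**Figure D4:**
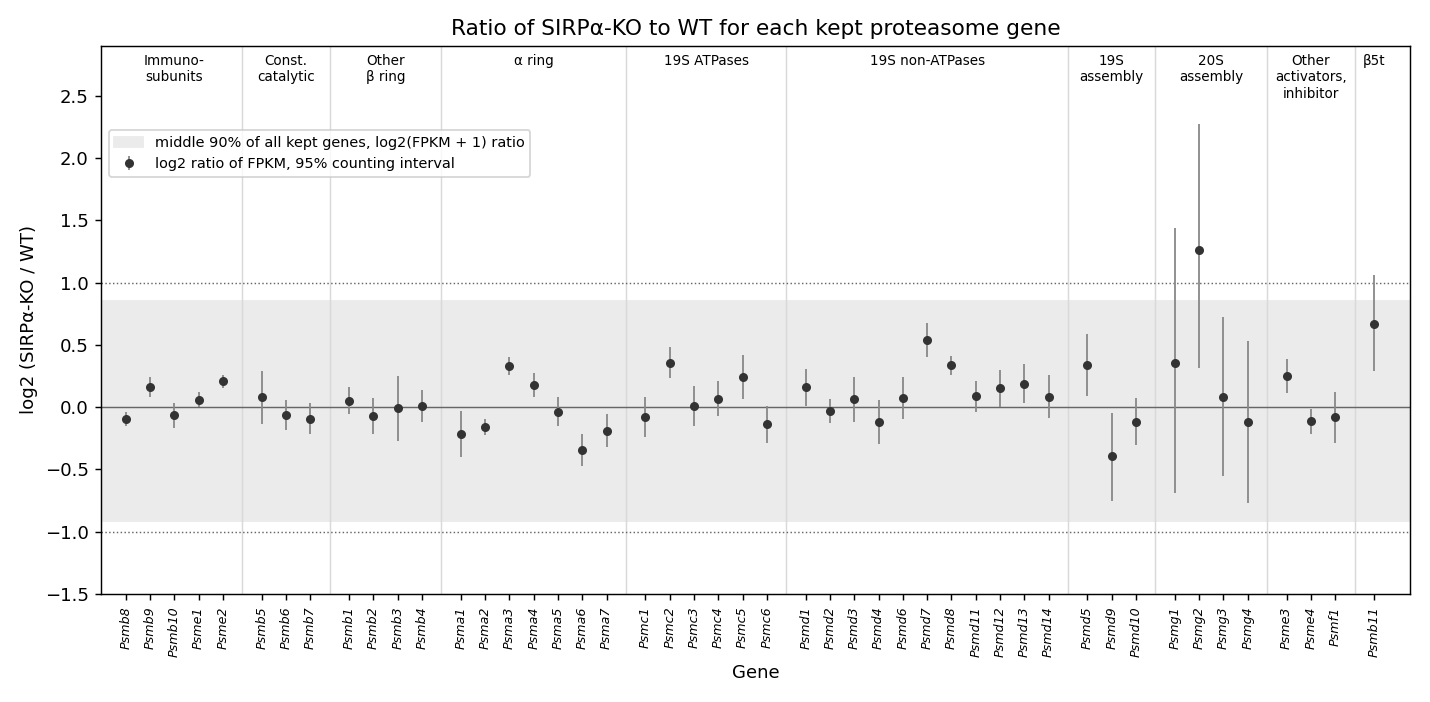
Plain log2 ratio of FPKM, SIRPα-KO to WT, for each of the 47 kept proteasome genes, with bars for the 95% counting interval; grey marks the middle 90% of all kept genes (-0.91 to 0.85, on the scale of FPKM + 1) and dotted lines a 2-fold difference. Most genes lie close to 0, Psmd7 stands at a fold of 1.45, and the low genes Psmg1, Psmg2, Psmg3 and Psmg4 have wide intervals.

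The α subunits form the outer rings of the core, through whose gate substrates enter. Of the 7 genes, 5 had a log2 ratio below 0 and 2 above, with a median of -0.16, and the other scalings kept this split. In the main setting 4421 of all 10092 kept genes lay below 0 and 5662 above. Psma6 was at 99.3 (WT) and 78.3 FPKM (SIRPα-KO), a fold of 0.788 (0.722 to 0.862) and the lowest log2 ratio of the 47 genes. Psma3 went the other way, with 85.9 (WT) and 108 FPKM (SIRPα-KO), a fold of 1.26 (1.20 to 1.32). Psma4 had the highest mean level of the 7, at 123 (WT) and 139 FPKM (SIRPα-KO). Words of Psma3 (22.0%), Psma4 (25.6%) and Psma5 (54.5%) also occur, read in the same direction, in other annotated genes, none of which is in the tables. The remaining α genes, Psma1, Psma2, Psma5 and Psma7, had folds between 0.863 and 0.975.

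The 4 β subunits without an active site had close levels in the libraries. The log2 ratios of Psmb1, Psmb2, Psmb3 and Psmb4 ran from -0.07 to 0.05, and each of their intervals included 1. With either of the other scalings all 4 were below 0. Psmb1 had the highest ratio of these, at 66.1 (WT) and 68.5 FPKM (SIRPα-KO). Psmb2 had the lowest ratio and the highest mean level, at 82.9 (WT) and 78.9 FPKM (SIRPα-KO). Psmb3 was the least abundant, at 29.8 (WT) and 29.6 FPKM (SIRPα-KO). Psmb11, which is known for its use in thymic epithelium, was at 1.96 (WT) and 3.12 FPKM (SIRPα-KO), about 94 and 148 reads. Psma8, known from testis, was under the filter in both, with 0.11 FPKM (WT) and a listed 0 (SIRPα-KO).

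The 6 ATPases of the 19S base, which unfold substrates and push them into the core, had levels between 30.9 and 50.02 FPKM in WT and between 28.1 and 59.2 FPKM in SIRPα-KO. Psmc2 had the highest ratio, at 46.2 (WT) and 59.2 FPKM (SIRPα-KO), a fold of 1.28 (1.17 to 1.40). Psmc6 had the lowest, at 30.9 (WT) and 28.1 FPKM (SIRPα-KO), a fold of 0.910 (0.820 to 1.01). The others, Psmc1, Psmc3, Psmc4 and Psmc5, lay between these. The median log2 ratio was 0.04, and -0.03 with either of the other scalings.

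The 19S subunits that are not ATPases include the ubiquitin receptor Psmd4 and the deubiquitinase Psmd14. Of the 11 genes 9 had a log2 ratio above 0, or 8 with either of the other scalings. Of all 10092 kept genes 5662 lay above 0 in the main setting. The median of the 11 was 0.08, or 0.01 and 0.02 with these scalings. Psmd7, the partner of Psmd14 in the lid, was at 43.2 (WT) and 62.7 FPKM (SIRPα-KO), a fold of 1.45 (1.32 to 1.59). This was the largest fold among proteasome genes at 20 FPKM or more in 1 library. Psmd8, another lid subunit, was at 153 (WT) and 193 FPKM (SIRPα-KO), a fold of 1.26 (1.20 to 1.33). It was the most abundant of the 11, and the other genes ran from 20.4 to 51.8 FPKM in WT and from 21.5 to 62.7 FPKM in SIRPα-KO. Psmd4 had the lowest ratio, at 38.6 (WT) and 35.5 FPKM (SIRPα-KO). Psmd14 was at 31.9 (WT) and 33.8 FPKM (SIRPα-KO).

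Of the 7 chaperones that build the particle, 6 were under 10 FPKM in both libraries. Psmd10 (gankyrin), a 19S chaperone and the only one of the 49 genes on the X chromosome, was at 30.7 (WT) and 28.3 FPKM (SIRPα-KO). Psmd5, another 19S chaperone, was at 4.99 (WT) and 6.31 FPKM (SIRPα-KO). Psmd9, the third of this kind, was at 5.42 (WT) and 4.14 FPKM (SIRPα-KO). Psmg1 and Psmg2 encode the pair that starts the α ring. Psmg2 was at 1.19 (WT) and 2.85 FPKM (SIRPα-KO), about 14 and 33 reads. Its plain fold was 2.40 with an interval of 1.24 to 4.84, while the log2 ratio of FPKM + 1 was 0.81, short of the 2-fold limit. With a pseudocount of 0.1 its log2 ratio was 1.19 and it became the only called proteasome gene. Its partner Psmg1 was at 1.34 (WT) and 1.71 FPKM (SIRPα-KO), about 15 and 19 reads. Psmg3 was at 4.46 (WT) and 4.73 FPKM (SIRPα-KO), and Psmg4 at 8.11 (WT) and 7.45 FPKM (SIRPα-KO). The intervals of Psmg1, Psmg3 and Psmg4 included 1 and were wide, so differences of the size seen for abundant subunits were not detectable there.

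Of the remaining regulators, Psme3 (PA28γ), the nuclear relative of Psme1 and Psme2, was at 26.1 (WT) and 31.0 FPKM (SIRPα-KO), a fold of 1.19 (1.08 to 1.31). Psme4 (PA200), another nuclear activator, was at 24.2 (WT) and 22.3 FPKM (SIRPα-KO). Psmf1 (PI31), first described as an inhibitor of the core, was at 9.54 (WT) and 9.01 FPKM (SIRPα-KO). Psme3 and Psme4 were each more than 10 times lower than Psme1 in both libraries. Psmc3ip matched the symbol rule, but it encodes a recombination factor that is no proteasome subunit. It was under the filter, at 0.28 (WT) and 0.75 FPKM (SIRPα-KO).

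Other genes of protein breakdown were taken from 4 lists, and genes named from them beyond called and most abundant ones were picked after their values were seen. Proteasome assembly factors, partners and regulators outside the symbol rule numbered 15 kept genes with a median log2 ratio of 0.14, and 0 were called. The median was 0.08 with either of the other scalings. Shfm1, a small lid subunit and the most abundant of these, was at 185 (WT) and 199 FPKM (SIRPα-KO). Pomp, which helps the core mature, was at 94.2 (WT) and 113 FPKM (SIRPα-KO). Uchl5, a deubiquitinase of the cap, had the highest ratio, at 20.4 (WT) and 30.2 FPKM (SIRPα-KO). Nfe2l1, the transcription factor that restores proteasome genes after inhibition, was at 25.3 (WT) and 32.9 FPKM (SIRPα-KO). Ddi2, the protease that activates Nfe2l1, was at 10.4 (WT) and 6.65 FPKM (SIRPα-KO). Zfand5, an activator of the proteasome, had the lowest ratio, at 11.5 (WT) and 6.77 FPKM (SIRPα-KO).

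Genes for ubiquitin, its shuttles and the p97 unfoldase had a median of 0.14 over 16 kept genes, also with 0 called, and 0.08 with the other scalings, where 8 genes lay above 0 and 8 below. Rad23b, a shuttle that carries ubiquitinated proteins to the cap, was at 24.9 (WT) and 34.7 FPKM (SIRPα-KO). Uba1, the main ubiquitin-activating enzyme, was at 128 (WT) and 80.0 FPKM (SIRPα-KO), and its gene is on the X chromosome.

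The list of interferon regulators and of peptide transport and trimming had a median of 0.06 over 10 kept genes, with 0 called. With the other scalings its median was -0.01, and 5 genes lay above 0 and 5 below, against 7 and 3. Irf1, the factor known to induce immunosubunits, was at 481 (WT) and 606 FPKM (SIRPα-KO). Of the genes beside Psmb8 and Psmb9 in the MHC region, Tap1 had a fold of 1.05 and Tap2 one of 0.821. B2m, the most abundant gene of the list, was at 8833 (WT) and 8383 FPKM (SIRPα-KO). Cytosolic peptidases, which trim peptides after the proteasome, had a median of 0.14 over 8 kept genes, with 1 called, and 0.07 with the other scalings. This was Prep, prolyl endopeptidase, at 6.13 (WT) and 14.4 FPKM (SIRPα-KO). Rnpep, an aminopeptidase, was at 39.6 (WT) and 19.5 FPKM (SIRPα-KO), a plain fold of 0.493 and a log2 ratio of FPKM + 1 of -0.99. It was called lower with a pseudocount of 0.1 and with either of the other scalings.

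**Figure D5:**
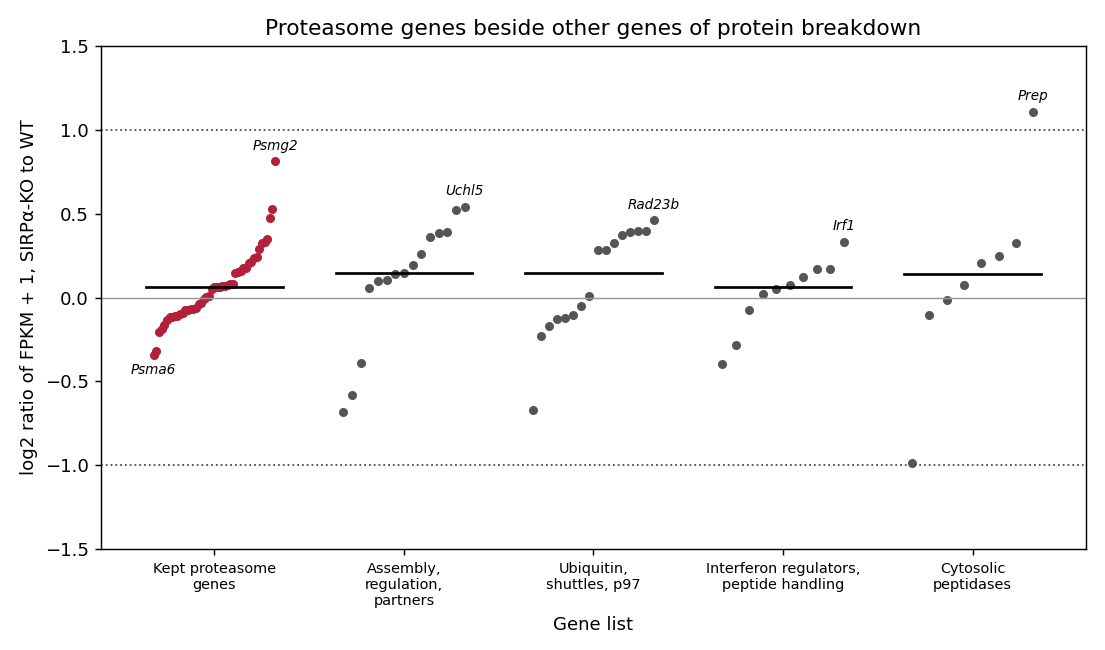
Log2 ratio of FPKM + 1, SIRPα-KO to WT, for each kept gene of the proteasome (red) and of 4 other lists (grey), sorted within each list, with a bar at the list's median and dotted lines at the 2-fold limit; the lowest and highest proteasome genes and the highest gene of each other list are named. Proteasome genes run from -0.34 to 0.81, and Prep is the one gene past the limit on this scale, with Rnpep near it at -0.99.

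The libraries differed in ways beyond the proteasome. Sirpa is on chromosome 2, as are 6 proteasome genes, Psma7, Psmb7, Psmc3, Psmd5, Psmd14 and Psmf1, whose log2 ratios ran from -0.19 to 0.29. Macrophage markers were high in both, with 9 genes summing to 10969 (WT) and 10875 FPKM (SIRPα-KO) and 1 of them, Csf1r, called lower. Neutrophil markers, 9 genes of which 5 were called lower, summed to 428 and 198 FPKM, most of it S100a8 and S100a9. Mpo had a ratio above 0, at 2.38 (WT) and 3.34 FPKM (SIRPα-KO), and the other 8 had one below. Elane was at 3.36 (WT) and 0.50 FPKM (SIRPα-KO). Dendritic cell markers, 10 genes of which 3 were called higher, summed to 30.2 and 176 FPKM, most of the latter Ccl22 (11.2 and 139 FPKM). Ccr7 and Dpp4 were higher too, Siglech was lower (3.03 and 1.11 FPKM), and Xcr1 and Clec9a differed little. Flt3 was at 0.34 (WT) and 0.10 FPKM (SIRPα-KO) and Zbtb46 at 0.20 and 0.70 FPKM, both under the filter. Itgae was at 0.30 and 0.02 FPKM, and Cd209a at 0.18 FPKM in WT and a listed 0 in SIRPα-KO. The sums were 6.11 and 2.51 FPKM for 6 B cell markers, 29.1 and 31.5 FPKM for 8 T and NK cell markers with Cd3g listed at 0 in both, Cd3e and Ncr1 in WT and Klrb1c in SIRPα-KO, and 10.4 and 12.4 FPKM for 6 stromal markers. Erythroid and megakaryocyte markers, 6 genes, summed to 42.7 and 155 FPKM, most of it Pf4, with Klf1 listed at 0 in both. Xist was at 47.5 and 0.91 FPKM and the Y-linked Eif2s3y at 0 and 21.4 FPKM, so a difference of genotype and one of sex cannot be told apart, also for the X-linked Psmd10. In pooled cells a smaller number of cells of a type and less RNA per cell cannot be told apart either, and the part of these differences in the proteasome values was not tested.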

How the data were processed

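Gene-level RNA-seq values of 2 pooled macrophage libraries, 1 per genotype, were used as deposited. The deposited values were taken as FPKM; the tables name no unit, and this was inferred from sums that differ between the libraries (444294 and 433460) and from low values that step with transcript length. Per the submitters' processing notes the authors used the mm9 genome, R 3.3.3 and DESeq2, with no role stated; for aligner, counter and strandedness nothing is stated in the sources used here. FPKM moves with the most abundant genes and with how reads shared by copies were assigned.

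Depth was estimated at about 11400000 (WT) and 11300000 (SIRPα-KO) reads, from 1515 and 1558 low values (below 4.5 reads) of which 54.1% and 51.9% lay within 0.1 of a whole read. Since so few values were whole, reads could not be recovered and a count test was not used. Lengths are means of the GENCODE M21 transcripts matched by RefSeq accession, less 40 bases, for all 49 proteasome genes. From the estimated reads, exact conditional binomial (Clopper-Pearson) 95% intervals of the fold were computed, and a normal approximation for pair ratios.

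Ratios used log2(FPKM + 1), which understates differences of low genes, over genes at 1 FPKM or more in 1 library, with Python 3.11.15, numpy 2.4.6, pandas 2.3.3 and scipy 1.17.1. With 1 library per group no p-value was computed. The calling and interval steps were tested on simulated data. The genes, lists and limits were chosen with earlier results of these data known. Named were all immunosubunits and constitutive catalytic genes, called genes, the extremes and most abundant gene of each subcomplex, genes under the filter and, from other lists, called or most abundant genes; other named genes were picked after their values were seen, and some genes of the other lists are not reported here. Chromosomes are from RefSeq (GRCm38), a later build than mm9. Alternatives were another pseudocount, other filters and limits, and 2 scalings.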

Additional observations from a re-analysis of the deposited data

How the results depend on the processing

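No paired analysis was possible because each group is 1 library, and no library could be left out. With a pseudocount of 0.1, 589 genes were higher and 677 lower over all kept genes, against 346 and 435, and 1 proteasome gene (Psmg2) was called higher. With a limit of 1.5-fold 1 proteasome gene was higher and 0 lower, and with 1.25-fold, a limit chosen after seeing the data, 6 and 1. The median log2 ratio of proteasome genes was 0.0086 with a filter at 5 FPKM, -0.0107 with median-of-ratios scaling and -0.0075 with trimmed-mean scaling. The median of all kept genes under these settings was 0.0812, -0.0015 and 0.0013. With either scaling 21 proteasome genes lay above 0 and 26 below, against 27 and 20. Of all kept genes 5662 lay above 0 and 4421 below in the main setting. The difference between immunosubunits and constitutive genes was 0.12 under every pseudocount, filter and scaling, 0.08 with means and -0.0043 with the 3 catalytic immunosubunits only. As the mean of the 3 pairs, the immunosubunit share was 66.6% in WT and 67.6% in SIRPα-KO. Of the 47 kept genes, 5 moved beyond their counting interval with median-of-ratios and 4 with trimmed-mean scaling, and 0 with the other settings. Depth limits the 4 Psmg genes, which rest on about 14 to 45 reads per library.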
